A study of Callithrix jacchus with 8 samples.

Results

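Embryonic stem (ES) cell lines of the common marmoset that were started from morulae were set against the line that was started from a blastocyst. All 8 RNA libraries of the series entered the comparison, 2 passages of each of 4 lines. DPZcjESC1 (passages 46 and 51, male, trisomic) and DPZcjESC2 (passages 36 and 37, female, trisomic) came from non-compacted morulae, and DPZcjESC3 (passages 37 and 41, female, euploid) from a compacted morula. DPZcjESC4 (passages 30 and 33, male, euploid) came from an expanded blastocyst whose trophoblast was left in place at plating. Each line goes back to 1 embryo, and the study lists the same adult donor for DPZcjESC1 and DPZcjESC2 and separate donors for DPZcjESC3 and DPZcjESC4. All lines were kept under hypoxia in the same serum replacement medium on irradiated mouse embryonic fibroblasts (MEFs) and were passaged with Accutase. The 6 morula-derived libraries were compared with the 2 of DPZcjESC4 over the 15781 of 32338 Ensembl gene identifiers that had at least 10 counts in at least 2 libraries. Each morula-derived line was then set against the other 3 lines in the same way, as a yardstick for how much any line differs from the rest. Since 1 line was blastocyst-derived, origin cannot be told apart from line, embryo donor or the lowest passage numbers, and p-values measure the spread between these libraries only.

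In the morula the cells have not yet been sorted into lineages. In the blastocyst the trophectoderm, which forms the placenta, has separated from the inner cell mass, and the inner cell mass gives rise to the epiblast and the primitive endoderm. ES cells are kept by a network of transcription factors around POU5F1, SOX2 and NANOG, and cells that leave this state switch on genes of the trophectoderm, the primitive endoderm or the primitive streak, where mesoderm and endoderm form.

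The libraries held between 10615123 and 12885444 gene counts, and 29.4% to 32.9% of unique hits lay outside genes. The library of DPZcjESC1 at passage 46 stood apart from the others. The root mean square of the log2 differences between the passages of DPZcjESC1 was 1.01, against 0.601 for DPZcjESC2, 0.791 for DPZcjESC3 and 0.513 for DPZcjESC4. The counts for each line against the rest are therefore given with and without this library. Levels are given in CPM, that is per 1000000 gene counts of the library, with TMM normalization. A symbol was found for 12816 of the 32338 identifiers and for 10715 of those tested. An identifier was called at an adjusted p under 0.05 (edgeR quasi-likelihood test, Benjamini-Hochberg) and a difference of at least 2-fold.

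Between DPZcjESC4 and the morula-derived lines 11 of 15781 identifiers (0.0697%) were called, 8 higher (0.0507%) and 3 lower (0.019%) in DPZcjESC4. The same comparison called 16 identifiers (0.101%) for DPZcjESC1, 7 (0.0444%) for DPZcjESC2 and 9 (0.057%) for DPZcjESC3. In this fit the count of the blastocyst-derived line thus lay within the range of the morula-derived lines. It lay below that range with passage order as a block, at 6 against 15, 9 and 10 for DPZcjESC1, DPZcjESC2 and DPZcjESC3, and with passage number as a covariate, at 1 against 5, 3 and 14. These comparisons share libraries, and no identifier was called in more than 1 of them. At an unadjusted p under 0.05 there were 694 identifiers (4.4%) for DPZcjESC4, 1796 for DPZcjESC1, 1083 for DPZcjESC2 and 618 for DPZcjESC3. DESeq2 called 49 identifiers (0.31%) for DPZcjESC4, 37 higher and 12 lower, and 123, 88 and 32 for DPZcjESC1, DPZcjESC2 and DPZcjESC3. All 11 edgeR calls were among the 49.

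**Figure D1:**
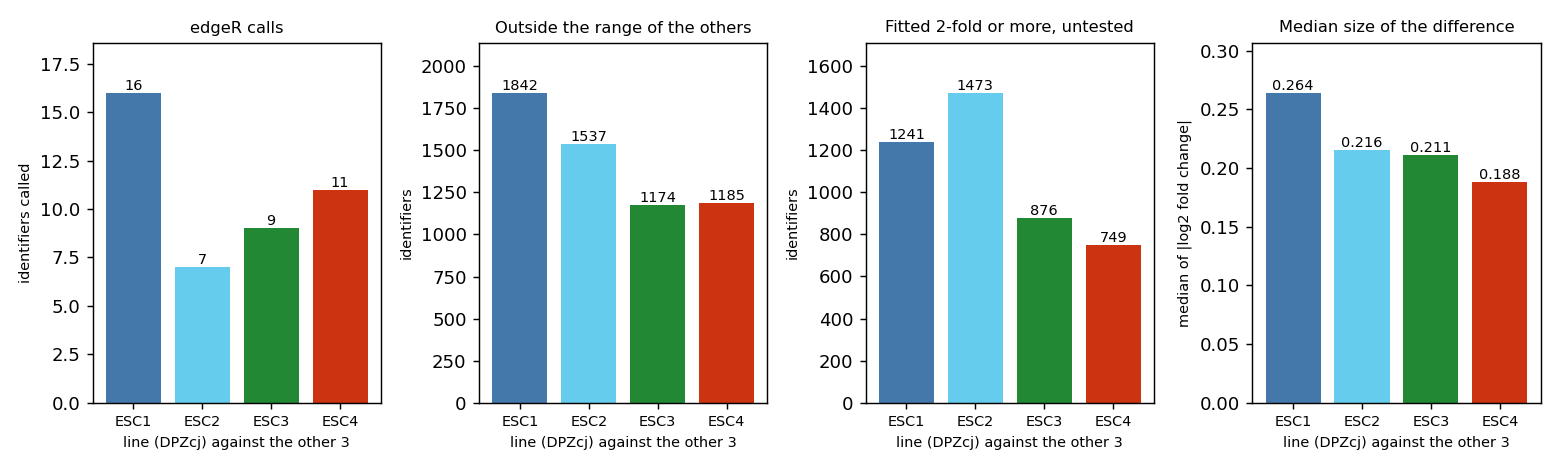
Each line against the other 3 lines over 15781 identifiers. Bars give the number called by edgeR, the number with both libraries of the line above or below the other 6, the number with a fitted difference of at least 2-fold whatever its p, and the median size of the log2 fold change; DPZcjESC4 had the lowest value in the last 2 panels, 749 identifiers and 0.188.

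The number of calls rested on single libraries. Without DPZcjESC1 passage 46 it was 55 (0.349%), 50 higher and 5 lower in DPZcjESC4, among them all 11. The yardsticks without that library were 6 calls for DPZcjESC1, then with 1 library, 7 for DPZcjESC2 and 6 for DPZcjESC3, so that DPZcjESC4 had the highest count there. DESeq2 called 215 identifiers (1.36%) for DPZcjESC4 without it, against 54, 111 and 43. At an unadjusted p under 0.05 edgeR then gave 1322 identifiers for DPZcjESC4, 1098 for DPZcjESC1, 1466 for DPZcjESC2 and 698 for DPZcjESC3. Without DPZcjESC1 passage 51 it was 5, without DPZcjESC2 passage 36 it was 1 and without DPZcjESC2 passage 37 it was 6. It was 5 without DPZcjESC3 passage 37 and 3 without DPZcjESC3 passage 41. With a single DPZcjESC4 library, which the fit assumes to vary like the morula-derived ones, edgeR called 0 identifiers, with 208 at an unadjusted p under 0.05 without passage 30 and 421 without passage 33. Among the yardsticks DPZcjESC1 had 531 calls without its passage 51, where passage 46 stood for the line alone. DPZcjESC2 had 12 without DPZcjESC3 passage 37 and 0 without either of its own libraries (712 and 469 at an unadjusted p under 0.05 without passages 36 and 37). DPZcjESC3 had 1 without its passage 37.

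By the median size of its differences and by the number of at least 2-fold, DPZcjESC4 had the lowest value of the 4 lines with all libraries. The median log2 difference, sign ignored, was 0.188 for DPZcjESC4, 0.264 for DPZcjESC1, 0.216 for DPZcjESC2 and 0.211 for DPZcjESC3. A fitted difference of at least 2-fold, untested, was found for 749 identifiers in DPZcjESC4, of which 302 were higher and 447 lower, and for 1241, 1473 and 876 in DPZcjESC1, DPZcjESC2 and DPZcjESC3. Of these 918, 165 and 169 were higher in the line, so that DPZcjESC4 had more higher identifiers than DPZcjESC2 and DPZcjESC3 and fewer than DPZcjESC1. Without DPZcjESC1 passage 46 the 2-fold differences were 874 for DPZcjESC4 and 1876, 1445 and 742 for the other lines, and the medians were 0.201 for DPZcjESC4 and 0.260, 0.210 and 0.184. DPZcjESC3 then had the lowest of both. Both DPZcjESC4 libraries lay above all 6 others for 614 identifiers (3.89%) and below all 6 for 571 (3.62%). Together these were 1185 identifiers, against 1842 for DPZcjESC1, 1537 for DPZcjESC2 and 1174 for DPZcjESC3. Without DPZcjESC1 passage 46 the DPZcjESC4 libraries lay above the remaining 5 for 1227 identifiers (7.78%) and below them for 1003 (6.36%). Together these were 2230, against 2283 for DPZcjESC2 and 1432 for DPZcjESC3, and 5844 for the single library left of DPZcjESC1.

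For 8929 identifiers, 56.6% of those tested, the 95% interval of the difference between DPZcjESC4 and the morula-derived lines lay wholly inside 2-fold, and for 9433 (59.8%) without DPZcjESC1 passage 46. With all libraries the share was 87.6% of the 2636 identifiers with a mean of 100 CPM or more, 75.8% of those from 10 to 100 CPM and 20.4% of those from 1 to 10 CPM. It was 0.522% of the 1149 identifiers under 1 CPM, where a 2-fold difference was mostly not detectable at this depth.

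In pairs of lines with all libraries in, the values with DPZcjESC4 lay within the range of those between morula-derived lines. In a fit with 1 mean per line, 11 identifiers (0.0697%) were called between DPZcjESC4 and DPZcjESC1, the other male line. There were 10 (0.0634%) against DPZcjESC2 and 10 (0.0634%) against DPZcjESC3, the other euploid line. Between the morula-derived lines 10 were called for DPZcjESC2 against DPZcjESC1, 25 for DPZcjESC3 against DPZcjESC1 and 19 for DPZcjESC3 against DPZcjESC2. The root mean square of the log2 differences was 0.636, 0.691 and 0.632 for DPZcjESC4 against DPZcjESC1, DPZcjESC2 and DPZcjESC3. It was 0.809, 0.748 and 0.608 for the pairs of morula-derived lines in the order above. The pairs at 0.809 and 0.748 held DPZcjESC1 and so its passage 46. The pair without DPZcjESC1, at 0.608, lay below all pairs with DPZcjESC4. The root mean squares were not calculated without passage 46. The values between passages were calculated from single libraries, which carry more counting noise than line means. These counts too moved with single libraries: the calls against DPZcjESC1 ranged from 2 without DPZcjESC4 passage 30 to 258 without DPZcjESC1 passage 51, those against DPZcjESC2 from 1 without either DPZcjESC2 passage to 35 without DPZcjESC1 passage 51, and those against DPZcjESC3 from 5 to 17.

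**Figure D2:**
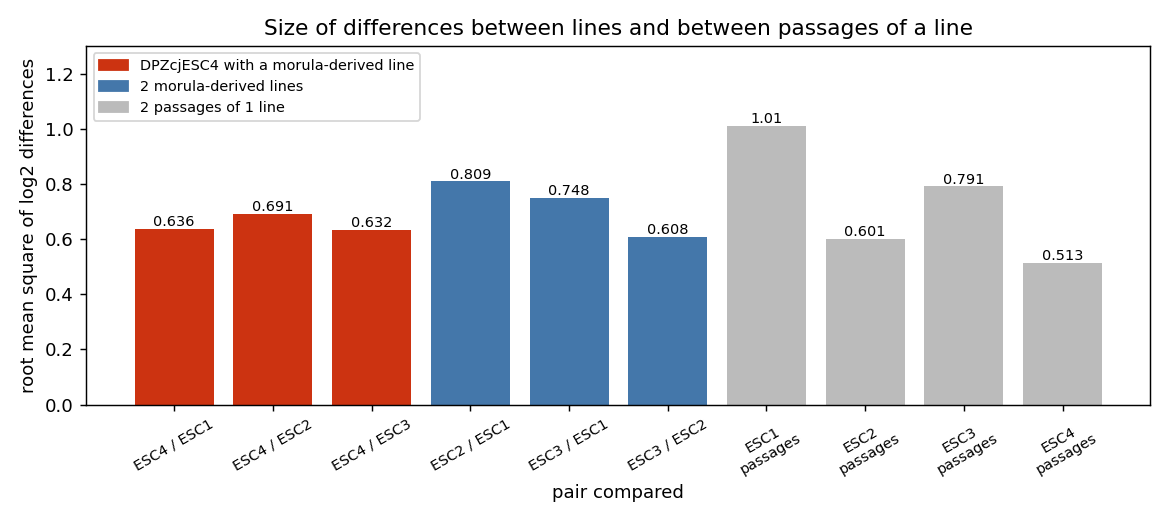
Root mean square of the log2 differences over 15781 identifiers for pairs of line means and for the passages of each line. Pairs with DPZcjESC4 lay between 0.632 and 0.691, pairs of morula-derived lines between 0.608 and 0.809, and the passages of DPZcjESC1 differed by 1.01.

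Most called identifiers had few counts. Their mean over the 8 libraries ranged from 0.604 to 21.6 CPM with a median of 1.79 CPM, and 7 of the 11 lay under 5 CPM. Only 2 had a symbol, CSMD3 and VWA5A. In all 11 the groups did not overlap, where 3.89% of all identifiers lay above and 3.62% below all 6 others. The calls were made on the same libraries, so that this is no separate result.

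CSMD3 (ENSCJAG00000005957) encodes a large transmembrane protein with CUB and sushi domains that is best known from the brain. It was at 2.32 and 1.97 CPM in DPZcjESC1, 0.944 and 1.00 CPM in DPZcjESC2, 0.832 and 1.15 CPM in DPZcjESC3, and 16.9 and 20.2 CPM in DPZcjESC4, earlier passage first. Every DPZcjESC4 value lay far above the highest morula-derived one, and among the morula-derived lines DPZcjESC1 was highest. The log2 fold change was 3.75 ± 0.38 (SE), with an adjusted p of 0.0106 (edgeR). CSMD3 was also called against each morula-derived line, with log2 differences of 3.11 against DPZcjESC1 (adjusted p 0.0498), 4.24 against DPZcjESC2 (0.0253) and 4.21 against DPZcjESC3 (0.0118). The call was lost without DPZcjESC2 passage 36, without DPZcjESC3 passage 41 and without either DPZcjESC4 library, where the adjusted p reached at most 0.239.

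VWA5A (ENSCJAG00000007804) encodes an intracellular protein with a von Willebrand factor A domain. Its level was even among the morula-derived libraries, with a lowest value of 9.27, a median of 10.3 and a highest of 12.7 CPM, and was 41.3 and 32.9 CPM in DPZcjESC4. The difference was the smallest of the 11 in fold but rested on 740 counts in the morula-derived and 909 in the DPZcjESC4 libraries, the log2 fold change being 1.80 ± 0.18 (SE, adjusted p 0.0106, edgeR). Against single lines it was not called, with adjusted p-values of 0.136, 0.0764 and 0.141 for DPZcjESC1, DPZcjESC2 and DPZcjESC3. The call was lost in 6 of the 16 other settings tried: with passage number or sex as a covariate, without DPZcjESC2 passage 36, without DPZcjESC3 passage 41 and without either DPZcjESC4 library, where the adjusted p reached at most 0.357 when a library was left out.

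Of the 3 identifiers that fell in DPZcjESC4, ENSCJAG00000013281 was called in 13 of the 16 other settings, the most of the 11. The 3 exceptions were passage number as a covariate and leaving out either DPZcjESC4 library (adjusted p up to 0.280). It was at 33.0 and 25.3 CPM in DPZcjESC1, 20.5 and 21.3 CPM in DPZcjESC2, 39.6 and 29.4 CPM in DPZcjESC3, and 1.67 and 2.07 CPM in DPZcjESC4. All 6 morula-derived values lay far above DPZcjESC4, and the log2 fold change was -3.91 ± 0.36 (SE, adjusted p 0.0106, edgeR). It was called against each line as well, with log2 differences of -3.96, -3.48 and -4.20 for DPZcjESC1, DPZcjESC2 and DPZcjESC3. CSMD3 and ENSCJAG00000013281 were the 2 identifiers called against all 3 morula-derived lines.

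ENSCJAG00000014579 ranged from 12.6 to 30.1 CPM (median 25.3 CPM) in the morula-derived libraries and was at 1.50 and 2.94 CPM in DPZcjESC4. The lowest values among the former were those of DPZcjESC1. The log2 fold change was -3.35 ± 0.45 (SE) with an adjusted p of 0.0469 (edgeR), and the adjusted p rose to as much as 0.870 when a library was left out. ENSCJAG00000032502, which is named although its mean lay under 5 CPM, had 16 to 31 counts in each morula-derived library and 0 in both of DPZcjESC4. It passed the count filter through the morula-derived libraries alone, so that its high values in them were in part fixed by the filter. Against a floor of 3 counts over the DPZcjESC4 libraries it was at least 14.9-fold lower there (adjusted p 0.0366, edgeR), while the exact 95% interval of the ratio, for counting error only, began at 11.98. The call was lost in 11 of the 16 other settings, with an adjusted p of up to 0.357 when a library was left out.

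The other 6 identifiers that rose in DPZcjESC4 had means under 5 CPM and are named after their values were seen. Of these, 5 had at most 3 counts in any morula-derived library, so that they passed the count filter through the DPZcjESC4 libraries alone. The filter thus required at least 10 counts in both DPZcjESC4 libraries, and their high values there were in part fixed by it. ENSCJAG00000021866 had 93 and 76 counts in DPZcjESC4 against 6 in the 6 morula-derived libraries together, a depth-scaled ratio of 81.1 (exact 95% interval 36.5 to 224, counting error only). ENSCJAG00000022748 had 72 counts in DPZcjESC4 and 3 in the morula-derived libraries, a ratio of 69.1 (22.7 to 343). ENSCJAG00000032885 had 87 and 6 counts, a ratio of 41.7 (18.4 to 117). For ENSCJAG00000019769 there were 87 and 11 counts (ratio 22.8), and for ENSCJAG00000015380 48 and 11 (ratio 12.6). ENSCJAG00000003454 had 7 to 12 counts in each morula-derived library, 53 together, and 138 in DPZcjESC4 (ratio 7.49). The adjusted p-values of the 6 were 0.0106 to 0.0366 (edgeR). They were called in 5 to 11 of the 16 other settings, ENSCJAG00000022748 and ENSCJAG00000015380 in 5 each. None of the 6 was called against a single morula-derived line. No symbol was paired with any of the 6 in the tables used here.

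**Figure D3:**
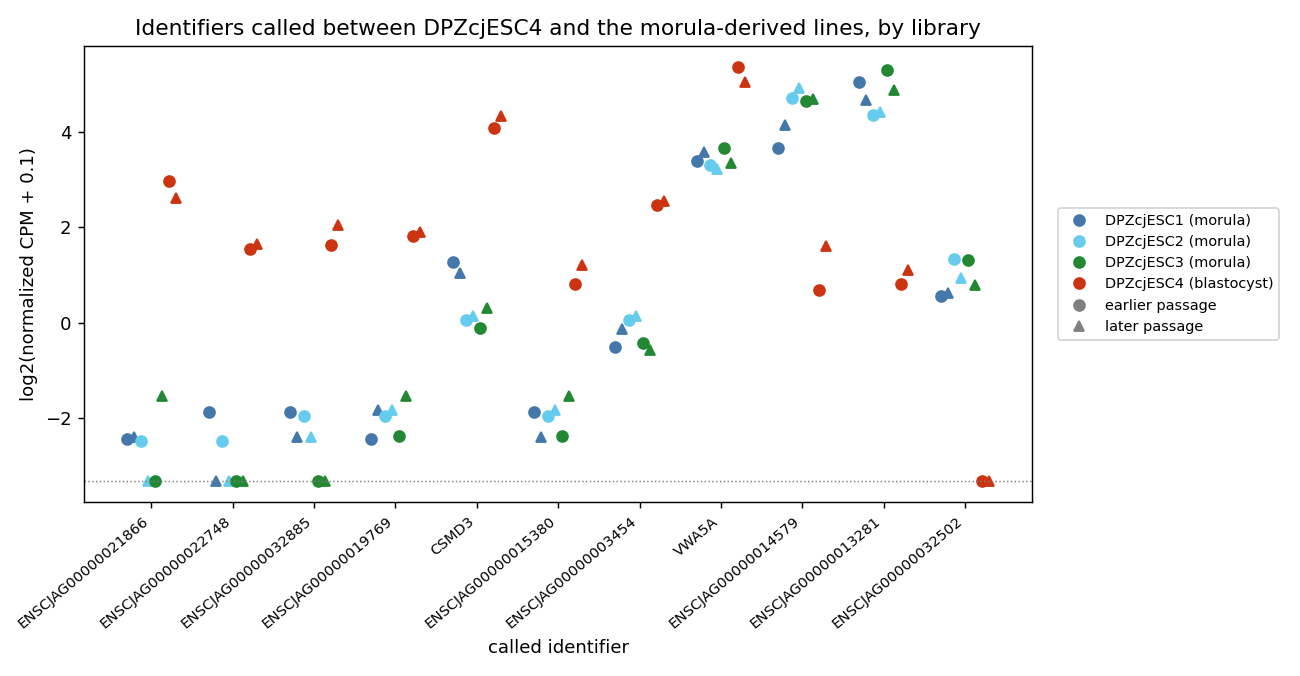
Level of the 11 called identifiers in each of the 8 libraries, as log2(normalized CPM + 0.1); colours mark lines, circles the earlier and triangles the later passage, and the dotted line is 0 CPM. The DPZcjESC4 libraries lie above all others for 8 identifiers and below all others for 3.

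Among the 10 identifiers next in order of p were genes of known function, named here after their values were seen. APOBEC2, a member of the AID/APOBEC deaminase family best known from muscle, ranged from 1.20 to 3.18 CPM in the morula-derived libraries and was at 21.9 and 12.3 CPM in DPZcjESC4. DCLK3, a doublecortin-like kinase, ranged from 0.786 to 2.69 CPM and was at 16.3 and 10.7 CPM. Their log2 fold changes of 2.98 ± 0.42 and 2.95 ± 0.41 (SE) missed the edgeR threshold with an adjusted p of 0.0589 for both. ARHGEF33, a guanine nucleotide exchange factor, had a log2 fold change of 2.08 ± 0.31 (adjusted p 0.0753, edgeR), and BIN2, a BAR domain protein of blood cells, one of 2.84 ± 0.44 (adjusted p 0.0958). SYCE1, a component of the synaptonemal complex that joins chromosomes in meiosis, was at 3.18 to 5.32 CPM in the morula-derived libraries and at 0.834 and 0.477 CPM in DPZcjESC4 (log2 fold change -2.50 ± 0.41, adjusted p 0.120). DESeq2 called these 5, as did edgeR without DPZcjESC1 passage 46.

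Of the 49 DESeq2 calls, made on the same libraries, 48 did not overlap between the groups. Of all identifiers 3.89% lay above and 3.62% below the others. A symbol was found for 30 of the calls, 24 higher and 6 lower in DPZcjESC4. The following were chosen from them after their values were seen. RBM46, an RNA-binding protein required in meiosis, was at 4.64 to 9.27 CPM in the morula-derived libraries and at 26.6 and 19.9 CPM in DPZcjESC4. PNLDC1, which trims piRNAs, was at 3.85 to 15.3 CPM and at 47.4 and 39.3 CPM. ALAS2, the first enzyme of heme synthesis in red cells, was at 2.13 to 13.0 CPM and at 51.4 and 31.7 CPM. Further genes with higher values were CA2, a carbonic anhydrase, SP8, a zinc finger factor of limb and brain development, SLIT2, a secreted guidance cue, and DOK5, a signalling adaptor. Their log2 fold changes were 1.91, 1.57, 1.32 and 1.79. Among those lower were QPRT, an enzyme of NAD synthesis, MTO1, which modifies mitochondrial tRNAs, and RPS20, a protein of the small ribosomal subunit. Their log2 fold changes were -1.38, -1.04 and -1.40, and reads of RPS20 can be shared with near-identical copies. Adjusted p-values from edgeR were 0.122 to 0.515 for these 10 genes. The DESeq2 call that overlapped, ENSCJAG00000010567, followed sex: it was at 206.5 to 257 CPM in the female lines DPZcjESC2 and DPZcjESC3, at 0.772 and 0.538 CPM in the male DPZcjESC1 and at 0.250 and 0.715 CPM in the male DPZcjESC4.

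Of the 55 identifiers that edgeR called without DPZcjESC1 passage 46, 32 had a symbol. For 32 of the 55 the groups did not overlap with all 8 libraries in. Of all identifiers 3.89% lay above and 3.62% below the others. In the remaining calls passage 46 of DPZcjESC1 overlapped with DPZcjESC4. SNAI2, a repressor of epithelial genes, was at 102 CPM in that library, at 8.23 to 11.2 CPM in the remaining 5 morula-derived libraries, and at 97.1 and 54.4 CPM in DPZcjESC4. LEF1, a nuclear effector of Wnt signalling, was at 113 CPM there, at 13.1 to 24.1 CPM in the remaining 5, and at 86.0 and 52.7 CPM in DPZcjESC4. HOXB2 (43.4 CPM against 50.4 and 25.6 CPM), TBX20 (15.4 against 10.4 and 10.3 CPM), NOG (11.1 against 7.09 and 6.84 CPM) and PROM1 (895 against 869 and 713 CPM) overlapped likewise. With passage 46 in, their adjusted p-values were 1.00 each (edgeR). These genes were chosen after their values were seen.

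The marker lists were matched by symbol. Fewer cells of a type and less RNA per cell cannot be told apart in such bulk libraries. Over all tested identifiers the median log2 fold change was -0.04. With all libraries edgeR called 0 members of any list, at an unadjusted p under 0.05 for 1 pluripotency, 1 trophectoderm, 3 primitive endoderm and 4 primitive streak genes, EOMES standing on the last list and on that of the trophectoderm. These were 1 of 11, 1 of 7, 3 of 7 and 4 of 5 tested members, where 4.4% of all identifiers reached that p. No neuroectoderm or fibroblast gene reached that p. DESeq2 called 2, both among the 5 tested members of the primitive streak list, where it called 0.31% of all identifiers.

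POU5F1, SOX2 and NANOG had reads in all 8 libraries. Of the 15 pluripotency genes on the list 12 were matched and 11 passed the count filter, and DPPA3, TDGF1 and ZFP42 were not matched. FGF4 was left out, with 0 counts in both libraries of DPZcjESC2 and of DPZcjESC4 and at most 0.246 CPM elsewhere. NR0B1, a nuclear receptor, had 0 counts in the later libraries of DPZcjESC1 and DPZcjESC3 and at most 2.42 CPM in any library. In DPZcjESC4 the fit gave higher values for 4 and lower values for 7 members, with a median of -0.18. POU5F1 was the 1 member whose groups did not overlap, where 3.62% of all identifiers lay below the others, at 401 to 477 CPM in the morula-derived libraries and at 306 and 383 CPM in DPZcjESC4. The log2 fold change was -0.40 (95% interval -0.71 to -0.09), with an adjusted p of 0.937 (edgeR). LIN28A, an RNA-binding protein of ES cells, and SALL4, a zinc finger factor, had intervals of -0.45 to 0.09 and -0.62 to 0.21, wholly inside 2-fold. For NANOG the interval ran from -1.67 to 1.29, which did not exclude a 2-fold difference in either direction. For SOX2 it ran from -1.57 to 0.38, which did not exclude a 2-fold lower level in DPZcjESC4.

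NANOG differed between the earlier and the later library of each line. It was at 38.6 and 141 CPM in DPZcjESC1, 39.0 and 150 CPM in DPZcjESC2, 42.3 and 159 CPM in DPZcjESC3, and 55.3 and 111 CPM in DPZcjESC4, earlier passage first. The later library was the higher one in 4 of 4 lines, as it was for SOX2, UTF1, GDF3, KLF4 and DNMT3B. It was the higher one in 2 of 4 lines for POU5F1, LIN28A and SALL4, and in 1 of 4 for KLF5 and NR0B1. The share of all identifiers that were higher later in 4 of 4 lines is not given here. DNMT3B, a de novo DNA methyltransferase, was at 589 and 2399 CPM in DPZcjESC1 and at 872 and 1753 CPM in DPZcjESC4. For NANOG, UTF1, KLF4 and DNMT3B the difference between the passages of a line was 0.67 to 2.87 on the log2(CPM + 0.5) scale. The fitted difference between the origins was -0.32 to 0.07 for these genes. SOX2 and GDF3 were not separated in this way. Between passages SOX2 differed by 0.35 to 1.63 and GDF3 by 0.30 to 2.91, with fitted differences between the origins of -0.60 and 0.79. The differences between passages were not tested, the labels name no batch, and a batch of earlier and later libraries cannot be told apart from passage. At passage 37 NANOG was at 150 CPM in DPZcjESC2, as its later library, and at 42.3 CPM in DPZcjESC3, as its earlier one. These libraries differ in line as well, and whether the values follow passage number was not tested.

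Of 12 trophectoderm genes 7 were matched and tested, GATA3, KRT8, KRT18, ELF5 and HAND1 being unmatched. The fit gave 2 higher and 5 lower values in DPZcjESC4 with a median of -0.90, and the groups overlapped for 6 of 7. For EOMES both DPZcjESC4 libraries lay above all 6 others, as they did for 3.89% of all identifiers. The transcription factors GATA2, TFAP2A, TFAP2C and CDX2 and the keratin KRT7 had lower values in the later passage in 4 of 4 lines. EOMES was lower later in 2 of 4 lines and TEAD4 in 1. The share of all identifiers that were lower later in 4 of 4 lines is not given here. TFAP2A was at 34.5 and 2.33 CPM in DPZcjESC1, 68.2 and 5.54 CPM in DPZcjESC2, 23.6 and 1.06 CPM in DPZcjESC3, and 15.3 and 3.42 CPM in DPZcjESC4. GATA2 ranged from 4.48 to 124 CPM in the morula-derived libraries (median 58.0 CPM), with the 3 later ones at 4.48, 16.1 and 4.67 CPM, and was at 43.4 and 14.9 CPM in DPZcjESC4. DPZcjESC4 lay inside the range of the morula-derived libraries for both genes, and their 95% intervals of the log2 fold change (-4.43 to 1.88 and -3.96 to 1.86) did not exclude a 2-fold difference in either direction. TEAD4 was even over all libraries at 30.0 to 45.2 CPM. The summed level of the list was 74.9 to 431 CPM in the morula-derived libraries and 168 to 270 CPM in DPZcjESC4.

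All 7 tested members of the primitive endoderm list (of 8, SOX17 unmatched) had a fitted value above 0 in DPZcjESC4, with a median log2 fold change of 1.40, where 43.3% of all identifiers were fitted higher. None was called with all libraries. For GATA4, PDGFRA, FOXA2 and LAMA1 both DPZcjESC4 libraries lay above all 6 others, as they did for 3.89% of all identifiers. GATA4, a transcription factor of endoderm and heart, was at 3.51 to 12.7 CPM in the morula-derived libraries and at 22.2 and 21.0 CPM in DPZcjESC4 (log2 fold change 1.40 ± 0.48 SE, adjusted p 0.940, edgeR). PDGFRA, a growth factor receptor, was at 32.8 to 142 CPM and at 209 and 218 CPM (1.63 ± 0.48, adjusted p 0.792). FOXA2, a forkhead factor of endoderm, was at 0.909 to 6.36 CPM and at 7.42 and 17.6 CPM (1.64 ± 0.57, adjusted p 0.938). DPZcjESC1 gave the highest morula-derived value for all 3 genes.

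GATA6, which with GATA4 marks the primitive endoderm, depended on 1 library. It was at 152 CPM in DPZcjESC1 passage 46, at 20.4 to 31.7 CPM in the 5 remaining morula-derived libraries, and at 161 and 109 CPM in DPZcjESC4. With all libraries its log2 fold change was 1.53 ± 0.72 (SE, adjusted p 1.00, edgeR). Without passage 46 it rose to 2.40 and GATA6 was called, the 1 list member that was, where 0.349% of all identifiers were called. In that setting DPZcjESC4 lay above the others for 6 of the 7 genes, where 7.78% of all identifiers did. Against the other 3 lines the median of the list was 0.09 for DPZcjESC1, -1.54 for DPZcjESC2 and -0.56 for DPZcjESC3. Since DPZcjESC4 was among the other lines, its high values lower these medians. COL4A1 and LAMA1, components of the basement membrane, differed less, with log2 fold changes of 0.58 and 0.59.

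The largest fitted differences among the lists were those of the primitive streak and mesoderm, where the median log2 fold change over the 5 genes was 2.30. TBXT, MIXL1, MESP1 and EOMES lay above all 6 morula-derived libraries in both DPZcjESC4 libraries, where 3.89% of all identifiers did. TBXT (brachyury), the defining factor of the primitive streak, was at 18.4 and 5.92 CPM in DPZcjESC1, 13.4 and 28.1 CPM in DPZcjESC2, 7.77 and 11.0 CPM in DPZcjESC3, and 127 and 36.5 CPM in DPZcjESC4. Its log2 fold change was 2.54 ± 0.55 (SE) with an adjusted p of 0.387 by edgeR and 0.00935 by DESeq2. The DPZcjESC4 libraries differed from each other by more than the later one did from the highest morula-derived library.

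MESP1, a factor of early mesoderm, had at most 0.909 CPM in the morula-derived libraries and 8.50 and 2.07 CPM in DPZcjESC4 (3.32 ± 0.60, adjusted p 0.213 by edgeR and 0.0051 by DESeq2). MESP1 was near the floor in the morula-derived libraries and would not have passed the count filter without DPZcjESC4. Its difference is therefore in part fixed by the filter. MIXL1, a homeobox factor of the streak, was at 0.740 to 13.2 CPM and at 39.4 and 19.7 CPM (2.30 ± 0.71, adjusted p 0.837, edgeR). EOMES, a T-box factor of both the streak and the trophectoderm and so on both lists, was at 8.60 to 67.2 CPM and at 96.3 and 71.4 CPM (1.68 ± 0.64, adjusted p 1.00). In DPZcjESC4 all 4 were higher at passage 30 than at passage 33. KDR, a receptor of vascular endothelial growth factor, went its own way, with 26.4 to 250.3 CPM in the morula-derived libraries and 103 and 111 CPM in DPZcjESC4. Against the other 3 lines the median of the list was -1.23 for DPZcjESC1, -0.78 for DPZcjESC2 and -1.78 for DPZcjESC3. DPZcjESC4 was among the other lines there, so that its high values lower these medians, which are no separate result.

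**Figure D4:**
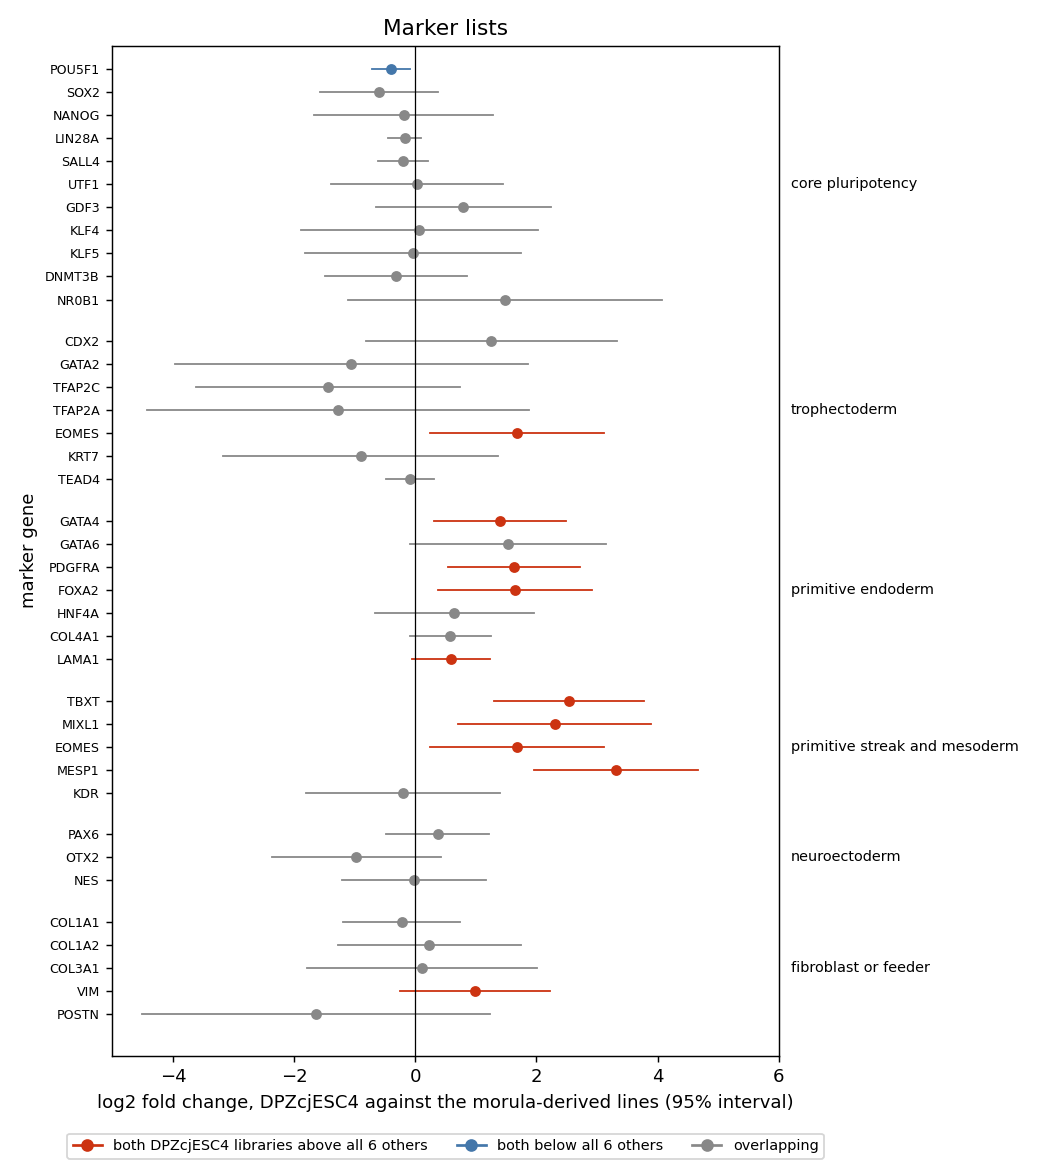
Log2 fold change of DPZcjESC4 against the morula-derived lines for the tested members of 6 marker lists, with 95% intervals from the edgeR fit. TBXT, MIXL1, EOMES, MESP1, VIM and 4 of 7 primitive endoderm genes are marked as lying above all 6 morula-derived libraries, and POU5F1 as lying below; no member reached an adjusted p under 0.05.

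Of the neuroectoderm genes PAX6, OTX2 and NES were tested (SOX1 unmatched), and all 3 overlapped between the groups. PAX6 was at most 2.64 CPM in any library. OTX2, a homeobox factor of epiblast and forebrain, was at 7.63 to 28.1 CPM in the morula-derived libraries and at 3.67 and 15.7 CPM in DPZcjESC4. NES, an intermediate filament protein, was at 265 to 1244 CPM and at 579 and 460 CPM. The median of the list was -0.02.

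Fibroblast genes, which could also come from feeder cells, were found in all libraries. Of 6 genes 5 were tested (THY1 unmatched), with a median of 0.11. Their summed level was 1088 to 5999 CPM in the morula-derived libraries and 2736 to 4452 CPM in DPZcjESC4, and no defining marker tested was at 0. COL1A1 was at 549 to 2024 CPM and at 1431 and 832 CPM. VIM, an intermediate filament protein of mesenchyme that other cells also make, was the 1 member above the range of the others. Of all identifiers 3.89% lay above it. VIM was at 162 to 706 CPM in the morula-derived libraries and at 898 and 845 CPM in DPZcjESC4 (log2 fold change 0.99, unadjusted p 0.105, edgeR). Against DPZcjESC1, DPZcjESC2 and DPZcjESC3 its log2 differences were 0.31, 2.34 and 0.97. The part of feeder reads in the results was not tested.

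**Figure D5:**
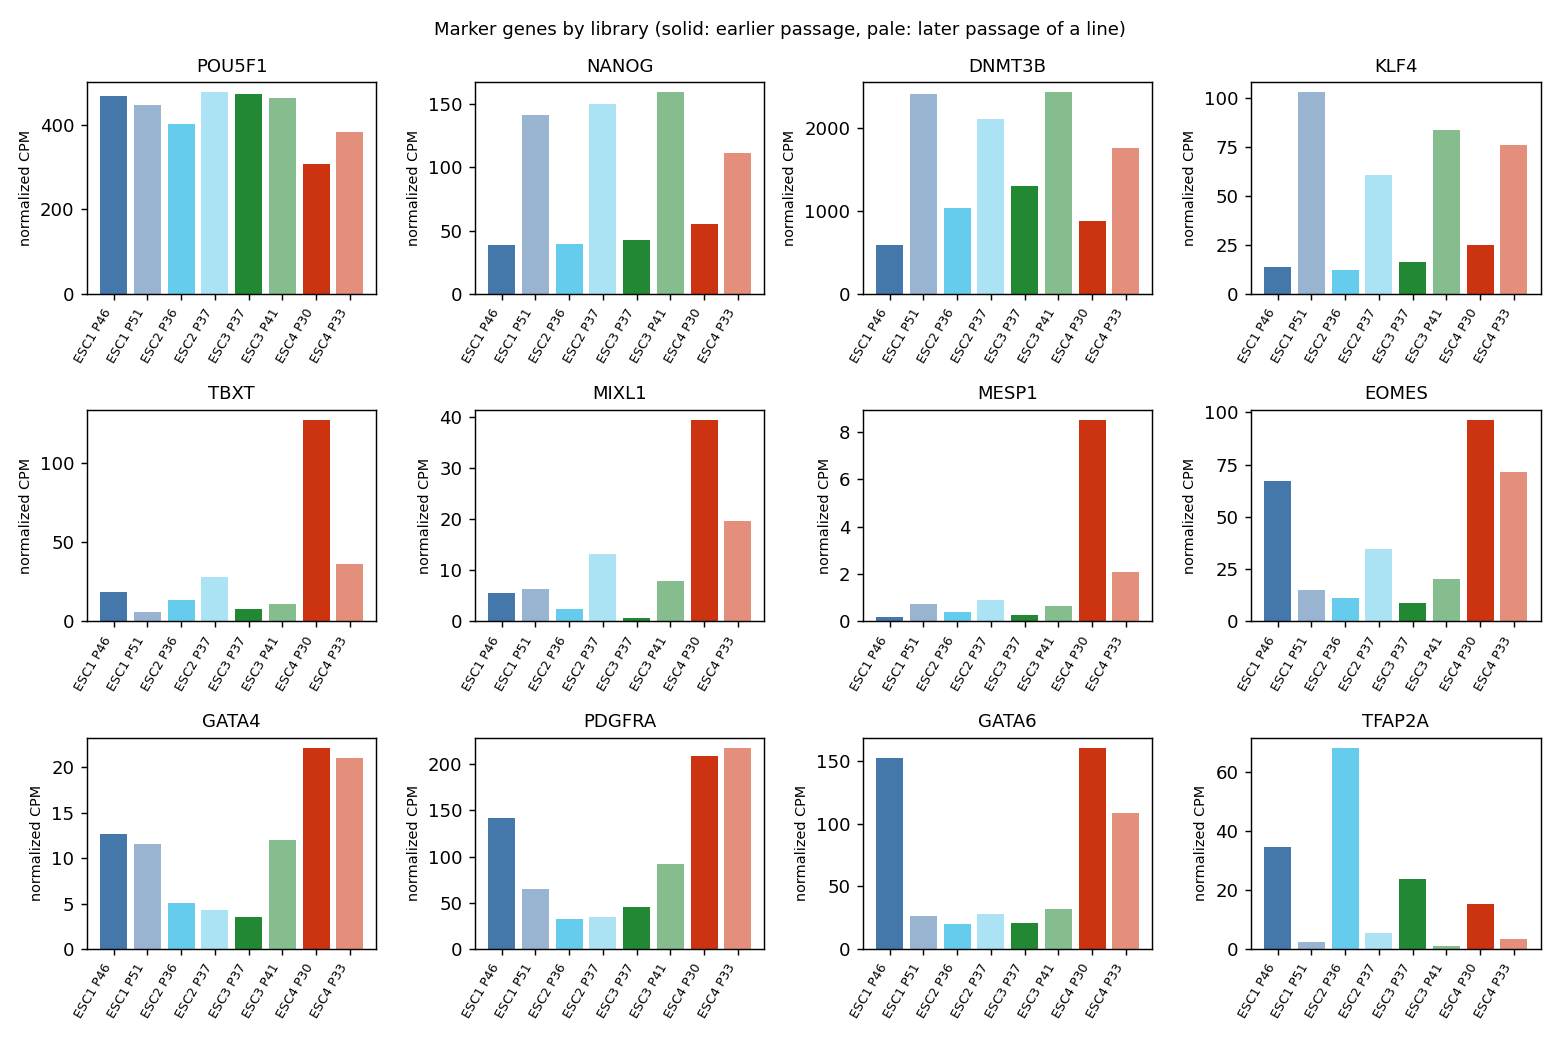
Normalized CPM of 12 marker genes in the 8 libraries, solid bars for the earlier and pale bars for the later passage of a line. TBXT, MIXL1, MESP1, EOMES, GATA4 and PDGFRA are highest in DPZcjESC4, GATA6 is high in DPZcjESC4 and in DPZcjESC1 passage 46, and NANOG, DNMT3B and KLF4 are higher and TFAP2A lower in the later library of each line.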

How the data were processed

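RNA-seq of 8 marmoset ES cell libraries was analysed from the deposited tables, which hold raw read counts for each Ensembl gene identifier of 1 library. The authors prepared polyA RNA with the TruSeq kit, sequenced it on a HiSeq2000, aligned the reads to the Ensembl marmoset assembly with STAR 2.3.0e and counted unique hits with SAMtools 0.1.18 and HTSeq 0.6.1p1. Reads with several hits (12693193 to 15347288 alignments per library) are not in the counts, so that genes sharing sequence with copies may read too low. Summary lines were left out. At these depths 3 counts correspond to 0.233 to 0.283 CPM, and intervals of counts cover counting error only.

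The test was edgeR 4.0.16 (R 4.3.3) with TMM factors, the quasi-likelihood F test and Benjamini-Hochberg adjustment, on identifiers reaching 10 counts in 2 or more libraries. Standard errors were the log2 fold change divided by the square root of F. On simulated counts of this comparison (15521 identifiers) 200 were changed by 2 on the log2 scale, each with 50 counts or more on average. Of these 88% were recovered, with 11 false calls. The simulation used the spread between passages of a line and gave the morula-derived lines a common level. Differences between these lines, which add to the spread in the data, were left out, so that 88% may be too high. The passages of a line differed by far more than sampling noise. Lines and passages came from the sample labels, sex, karyotype and trophoblast handling from the study's text. Alternatives were DESeq2 1.42.0, its size factors in edgeR, no filter or filterByExpr, no fold minimum, line means, passage order as a block, passage number or sex as a covariate, and leaving out each library. Leaving out DPZcjESC1 passage 46 in the untested counts and in DESeq2 was added after the data were seen. Named were to be calls without overlap whose mean reached 5 CPM (at most 15 per direction) and all list members. The comparison and the lists were chosen with earlier results of these data known.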

Additional observations from a re-analysis of the deposited data

Results flagged for a closer look

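In 5 of 48 values tested (the 11 called identifiers and the list genes), 1 of the 6 morula-derived libraries lay far from the other 5 by Dixon's criterion at the 95% level, where chance gives about 1 in 20, or 2.4. For 4 of them this was DPZcjESC1 passage 46, with 121 CPM of KLF5, a Krüppel-like factor, 17.8 CPM of CDX2, a trophectoderm factor, 152 CPM of GATA6 and 1244 CPM of NES. The highest of the other 5 libraries had 46.3, 6.21, 31.7 and 520 CPM of these genes. The remaining value was ENSCJAG00000021866 in DPZcjESC3 passage 41, with 0.246 CPM, which is 3 counts.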

How the results depend on the processing

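Counts of calls between DPZcjESC4 and the morula-derived lines moved from 11 to 49 with DESeq2, 18 with line means, 6 with passage order as a block and 1 with passage number as a covariate. With sex as a covariate there were 10, of which 2 were among the 11. Leaving out a library gave 0 to 55. DPZcjESC1 moved from 16 to 123 (DESeq2), 5 (passage number) and 10 (sex), and to 6 to 531 without a library. DPZcjESC2 moved from 7 to 88 (DESeq2), 18 (line means) and 3 (passage number), and to 0 to 12 without a library. DPZcjESC3 moved from 9 to 32 (DESeq2), 23 (line means), 14 (passage number) and 5 (sex), and to 1 to 7 without a library. The pairs of DPZcjESC4 with DPZcjESC1, DPZcjESC2 and DPZcjESC3 gave 94, 224 and 129 calls with DESeq2, 42, 100 and 46 with no filter on low counts, and 2 to 258, 1 to 35 and 5 to 17 without a library. Without DPZcjESC1 passage 46 DESeq2 called 215 for DPZcjESC4 and 54, 111 and 43 for DPZcjESC1, DPZcjESC2 and DPZcjESC3, identifiers outside the range of the others were 2230 for DPZcjESC4 and 5844 for DPZcjESC1, and those of DPZcjESC1 with a 2-fold difference were 1876. The cause of these shifts was not tested. DESeq2's size factors, filterByExpr and no fold minimum left every count of calls within 1.5 times. The labels number no replicates across lines, so that the 1 block fitted was the passage order, earlier or later within a line. It gave 15, 9 and 10 calls for DPZcjESC1, DPZcjESC2 and DPZcjESC3.

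Of 69 named identifiers 53 kept their direction in all 16 settings. None of the other 16 was called in any setting. With passage order as a block the log2 fold change turned to 0.048 for NANOG, -0.048 for UTF1, 0.43 for KLF5, 0.14 for KDR and 0.051 for NES. With passage number as a covariate it turned to 0.24 for NANOG, 0.80 for KLF5, 0.44 for KDR, -0.094 for PAX6, 0.31 for NES, 0.27 for COL1A1 and 2.00 for POSTN. With sex as a covariate it turned to 0.054 for SALL4, -0.20 for KLF4, 0.42 for KRT7, 0.085 for TEAD4, -0.33 for COL1A2 and -0.77 for COL3A1. Line means turned KLF5 to 0.16 and NES to 0.052. Leaving out a library gave -1.64 to 0.00042 for SOX2, -0.78 to 0.23 for NANOG, -0.91 to 0.59 for UTF1, -0.94 to 0.66 for KLF4, -0.21 to 0.72 for KLF5, -0.91 to 0.094 for DNMT3B, -0.41 to 0.14 for KDR, -0.20 to 0.43 for NES, -0.67 to 0.12 for COL1A1, -0.30 to 0.62 for COL1A2 and -0.55 to 0.63 for COL3A1.

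Depth limited the comparison at low levels: the interval lay inside 2-fold for 87.6% of identifiers at 100 CPM or more and for 0.522% under 1 CPM. DPZcjESC4 is 1 line with 2 libraries.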
